A study of Mus musculus with 5480 samples.

Results

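The myofibroblast and smooth muscle precursors of the fetal mouse lung are the cells that carried that name in the subtype label and came from embryonic day 18.5 (E18.5), the last day or so before birth, in normal air. They numbered 224 of the 1206 cells of that age and of the 5480 cells of the series, with 101 cells from the female mouse and 123 from the male mouse. The cells came from the distal lung, were separated by flow cytometry, and were sequenced singly in plates. The groups used here are E18.5 in normal air and, for values set side by side, postnatal day 1 (P1) in normal air, each with 1 female and 1 male mouse; the labels give no strain, allele or agent. Each mouse is its only replicate of its sex, so a difference between the mice cannot be told apart from sex, plate or sequencing run. Reads were summed over the cells of a subtype in each mouse, and each such sum is called a library.

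Myofibroblasts and smooth muscle cells share a contractile apparatus of actin filaments, myosin and calcium-regulated accessory proteins, much of it driven by serum response factor with its cofactor myocardin. In the developing lung, airway smooth muscle surrounds the conducting airways, while alveolar myofibroblasts lie at the tips of the growing alveolar septa, where they make the elastin that septa need. Both arise from mesenchyme that receives Hedgehog and Wnt signals and platelet-derived growth factor from the epithelium and from neighbouring cells.

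The precursors made up 16.11% of the E18.5 cells of the female mouse (Wilson 95% interval 13.44% to 19.19%) and 21.24% of those of the male mouse (18.11% to 24.76%). Their libraries held 85991567 and 126513080 reads, and the median precursor cell held 867549 reads in the female and 846844 in the male mouse. The other libraries ranged from 7 to 425 cells, with fewest cells in the vascular smooth muscle (7 and 9 cells, 5659443 and 8359633 reads) and most in the fibroblast precursors (425 and 335 cells, 333192382 and 350479301 reads). The fewest reads were in the female early alveolar fibroblasts (14 and 24 cells, 3123998 and 13571674 reads). The median early alveolar fibroblast held 1042 and 1232 genes, against 3343 and 3904 in the precursors. The E18.5 myofibroblasts (7 male cells), the proliferating myofibroblasts (2 female and 7 male cells) and the proliferating pericytes (3 and 3 cells) did not have 5 cells in each mouse. They entered neither the tests nor the mean of the other subtypes, and the other 12 libraries never include them; their values are given separately, on the scale of all reads. Levels are given as CPM, read counts scaled to a common library size by the TMM method, with the female library first and the male library after it. Such a sum does not show whether more cells held reads of a gene or each cell held more of them.

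Markers of epithelial, endothelial and immune cells were low in the precursors. The summed level of the whole epithelial list (12 genes) was 70.7 and 44.1 CPM, against 64.4 and 52.3 in the fibroblast precursors, and Sftpa1 in the female library and Sftpb and Krt8 in the male library had no reads. The endothelial list (10 genes) summed to 155.6 and 170.4 CPM against 97.8 and 83.4, with Kdr and Tek (female) and Tek (male) at 0. The immune list (10 genes) summed to 16.0 and 15.6 CPM against 5.48 and 6.96 in the fibroblast precursors and 0 and 0.654 in the vascular smooth muscle, while single libraries of other subtypes reached up to 581 CPM. The striated and cardiac muscle list (8 genes) differed between the mice, at 5.26 and 83.6 CPM. It summed to 11.7 and 12.7 CPM in the fibroblast precursors and 130 and 154 in the vascular smooth muscle. Its member Actc1 was at 0.244 and 85.0 CPM of all reads in the precursors. No gene of these lists passed a test in any comparison. Their part in the results was not tested. Counts of genes called are given in the closing section without the cells that held a read of Epcam, Pecam1 or Ptprc. These were 237 E18.5 cells of all subtypes, 38 of them precursors, so the other subtypes lost cells as well.

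The 5 genes by which the class is known were all present in both precursor libraries. Tgfbi, which encodes a secreted adhesion protein induced by TGF-beta, stood at 4752 and 5599 CPM. It was at 2.04 and 0.375 CPM in the fibroblast precursors, at 0 and 0 in the pericytes and at 0.163 and 0 in the vascular smooth muscle, and its highest level in the other 12 libraries was 61.4 CPM, in the male early adventitial fibroblasts. Of the classes outside the fit, the myofibroblasts held 924 CPM of all reads and the proliferating myofibroblasts 3654 and 2026, against 4957 and 5966 in the precursors. Hhip, a membrane protein that binds and limits Hedgehog ligands, stood at 1733 and 1694 CPM, against 324 and 248 in the fibroblast precursors and no read in either vascular smooth muscle library. Wnt5a, a Wnt ligand of the non-canonical branch, stood at 583 and 503 CPM against 101 and 102 in the fibroblast precursors and 0 and 0.235 in the pericytes. Acta2, the smooth muscle alpha-actin gene, was at 4067 and 3399.5 CPM, above the fibroblast precursors (983 and 1238) and below both vascular smooth muscle libraries (5005 and 8000.1). Tagln, which encodes the actin-binding protein transgelin, followed the same order at 146 and 135 CPM, between 10.1 and 14.2 and 248 and 468. The markers thus fall into Tgfbi, Hhip and Wnt5a, which were higher in the precursors than in all 12 other libraries, and Acta2 and Tagln, which were exceeded in vascular smooth muscle.

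**Figure D1:**
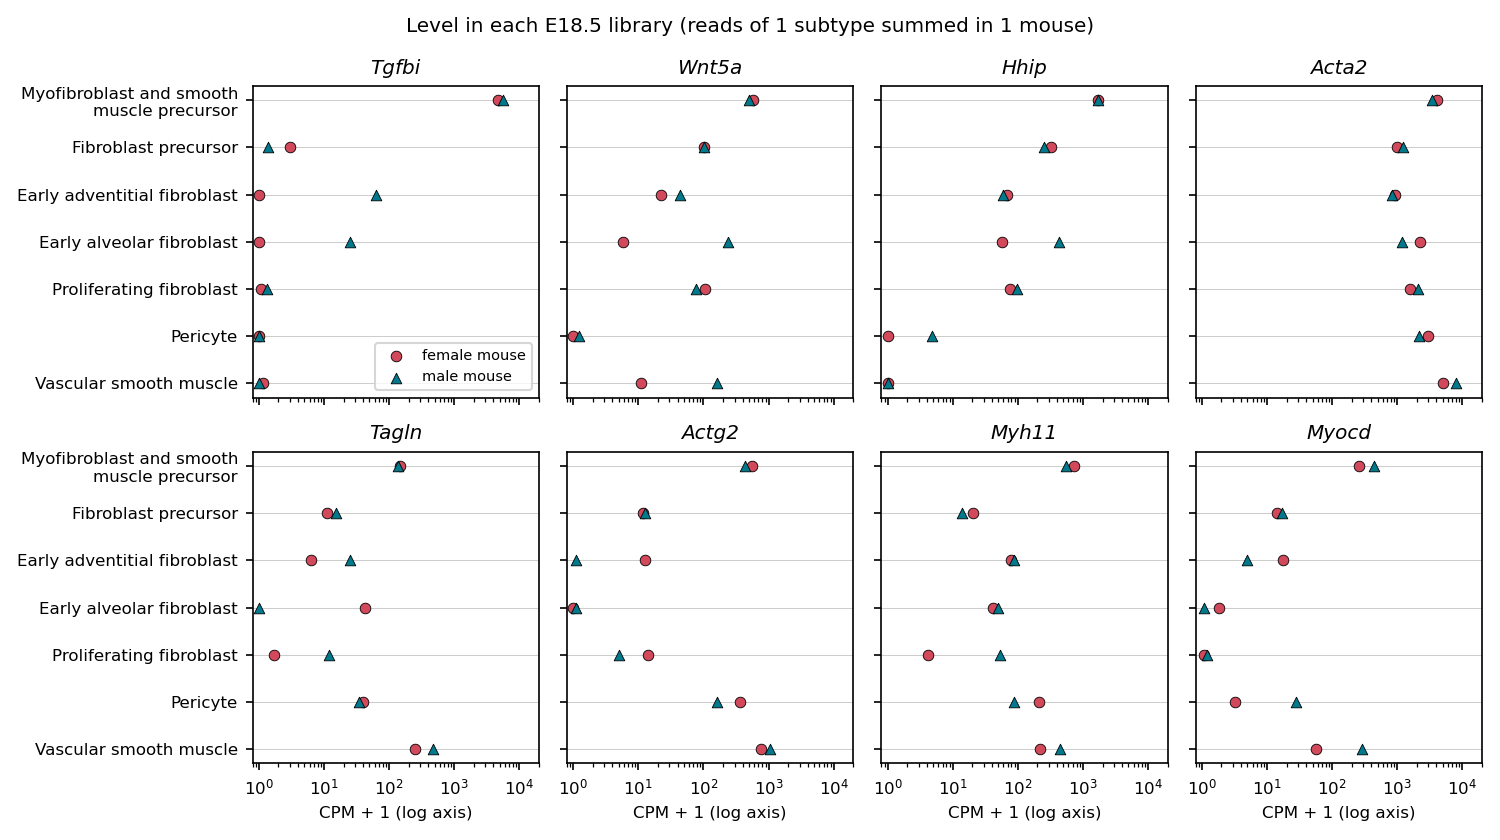
Level of 8 genes in the 14 E18.5 libraries, as CPM + 1 on a log axis, with 1 circle for the female and 1 triangle for the male mouse in each of the 7 subtypes. Tgfbi is at 4752 and 5599 CPM in the precursor libraries and at most 61.4 CPM in the other 12, while Acta2, Tagln and Actg2 reach their highest levels in vascular smooth muscle.

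The libraries were compared with edgeR's quasi-likelihood test in 1 fit of 7 subtypes with the mouse as a block, and a gene was called at a Benjamini-Hochberg adjusted p under 0.05 over all 14252 genes tested. The p-values measure the spread between libraries of 2 mice only. Whether the submitters had named the subtypes from these same counts is not given in the sources used here, so the tests describe the difference between named classes and are no independent evidence that the classes exist.

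Against the fibroblast precursors, the most numerous class of that age, the precursors were higher in 3 genes (0.021% of those tested) and lower in 27 (0.189%). The 3 higher genes were Clu, Mcam and Cd248, and the lower genes included Fn1, G0s2, Limch1, Mfap4 and Tagln2. Clu, which encodes the extracellular chaperone clusterin, was at 162 and 115 CPM and at 0.0168 and 0.0104 in the fibroblast precursors, and the vascular smooth muscle held as much as the precursors (172 and 90.2). Mcam, an adhesion molecule of vessel-wall cells, was at 56 and 42.1 CPM against 0.0392 and 0.159, a log2 fold change of 9.27 (SE 0.92, adjusted p = 0.00129); it was higher still in the pericytes, at 719 and 1978 CPM. Cd248, the stromal protein endosialin, was at 836 and 856 CPM against 25.9 and 23.2, a log2 fold change of 5.13 (SE 0.84, adjusted p = 0.0291). Each of the 3 was higher in both mice, with no overlap between the subtypes. Without the cells that held a read of Epcam, Pecam1 or Ptprc none of the 3 passed (adjusted p = 0.569 for Clu, 0.0745 for Mcam and 0.0715 for Cd248), while the log2 fold changes were 13.11, 10.87 and 4.96, against 13.16, 9.27 and 5.13 with all cells. Clu and Cd248 also failed without any 1 of the 4 libraries compared, whereas Mcam passed without each.

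Among the genes lower than in the fibroblast precursors, Fn1, which encodes fibronectin, had the smallest adjusted p, at 51.4 and 42.5 CPM against 2864 and 2760.0 (log2 fold change -5.90 (SE 0.40, adjusted p = 5.81e-05)). It was also lower than in the vascular smooth muscle (890.2 and 1312 CPM) and the pericytes (309 and 279 CPM), with log2 fold changes of -4.53 (SE 0.37, adjusted p = 0.000286) and -2.64 (SE 0.34, adjusted p = 0.00468). G0s2, an inhibitor of triglyceride breakdown, was at 44.7 and 62.1 CPM against 2038 and 1943, and Gyg, the primer of glycogen synthesis, at 99.6 and 168 against 3293 and 3992. Hsd11b1, which activates glucocorticoids, was at 1.07 and 16.4 CPM against 2459 and 2994, and Limch1 at 1.08 and 22.3 against 2305 and 2302. In both of these the male library held more reads than the female library and still stayed far below the fibroblast precursors. Brinp1, Npnt, Enpep, Fbln5 and Spon1 complete the 10 largest differences downward under the naming rule given below, which leaves out predicted genes. They were at 0.00742 to 11.2 CPM in the precursors and 97.5 to 422 CPM in the fibroblast precursors. The predicted gene 6030408B16Rik was also lower, with a log2 fold change of -9.14 (SE 0.96, adjusted p = 0.00129). Of the 10 fibroblast markers, 3 were called lower (Fn1, Limch1 and Macf1), and the whole list summed to 1129 and 1102 CPM against 12080.0 and 10610.0. The log2 fold change was below 0 for 9 of the 10 and above 0 for 1, Pdgfra. Pdgfra, whose levels are given below, made up most of the sum in the precursors. Tcf21, a transcription factor of lung fibroblasts, was at 11.3 and 23.7 CPM against 1590.3 and 1312 but did not pass the test (adjusted p = 0.208).

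None of the 5 class markers was called in this comparison, although their levels did not overlap between the subtypes. The log2 fold changes were 11.47 for Tgfbi (SE 2.87, adjusted p = 0.291) and 1.74 for Acta2 (SE 0.34, adjusted p = 0.102), and the spread in the fit comes from all 14 libraries, the smallest included. With DESeq2, Tgfbi passed (adjusted p = 0.00107). With edgeR on cells thinned to 100000 reads, Tgfbi (adjusted p = 0.0427) and Acta2 (adjusted p = 0.00748) passed. Hhip, Wnt5a and Tagln passed in neither. In a fit of these 2 subtypes alone, which leaves 1 residual degree of freedom, all 5 markers passed, with adjusted p between 0.00315 and 0.00963, and 498 genes were higher and 345 lower. All 3 higher and all 27 lower genes of the larger fit were among them. A gene not called against the fibroblast precursors is therefore not shown to be at the same level. The count of 30 fell to 13 without the female and 16 without the male precursor library, to 14 and 16 without the female and male fibroblast precursors, and to 12 without cells with a read of Epcam, Pecam1 or Ptprc. It was 56 and 53 without the female and male early alveolar fibroblasts and 46 without the male vascular smooth muscle. Fn1, G0s2, Hsd11b1, Macf1, Mfap4 and Tagln2 passed under all of these settings, while Brinp1, Enpep, Fbln5, Spon1, Mest and Npnt did not.

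**Figure D2:**
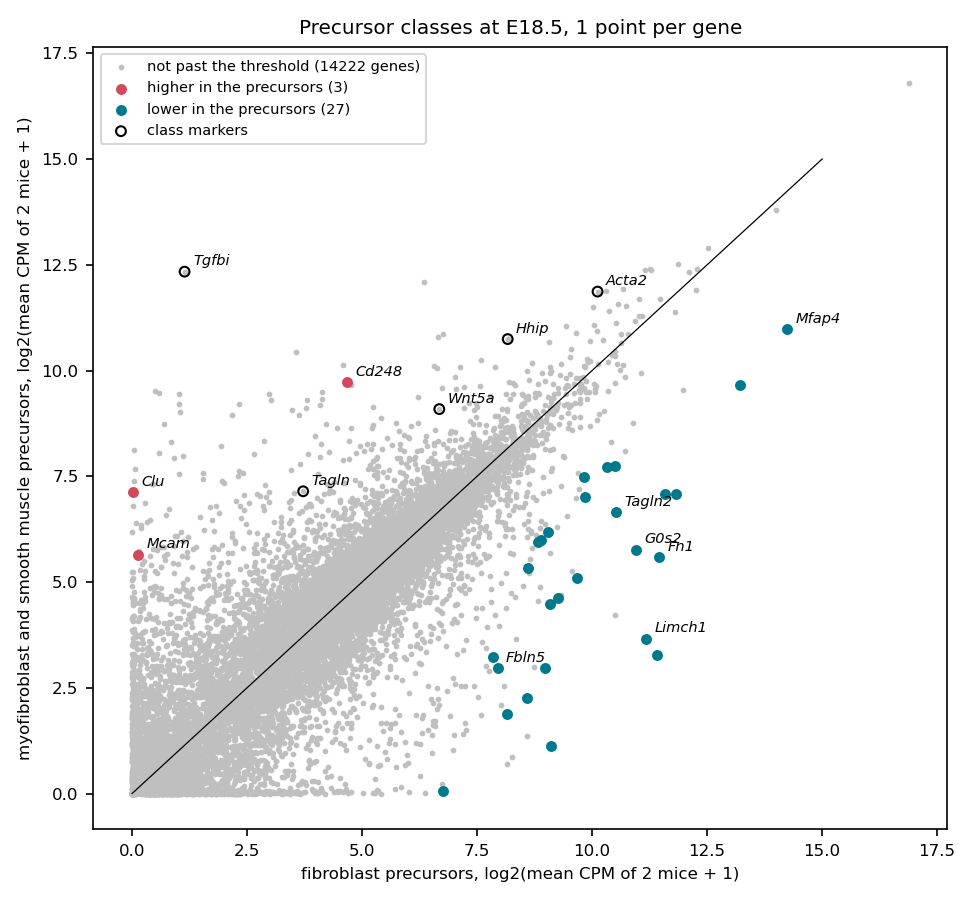
Mean level of each of the 14252 tested genes in the fibroblast precursors (horizontal) and in the myofibroblast and smooth muscle precursors (vertical), as log2 of the mean CPM of 2 mice plus 1, with the 3 genes called higher and the 27 called lower in colour and the class markers ringed. Tgfbi lies far above the diagonal without passing the threshold, and the called genes lie mostly below it.

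Against the unweighted mean of the 6 other subtypes, 468 genes were higher (3.28% of those tested) and 54 lower (0.379%). The median log2 fold change of all genes tested was 0.63 here, and 375 of the 468 higher genes (80.1%) had no read in either mouse in at least 1 other subtype, against 35.1% of all genes tested and 0 of the 54 lower genes. The fitted fold change of such a gene is not a size, and its levels are given instead. The count rested on single libraries: 37 genes were called without the female precursor library and 46 without the male one, and 142 to 343 without 1 library of another subtype, except for 608 without the female early alveolar fibroblasts. The comparison is used below for which members of a list were called, always beside the levels. Each such count stands against the shares of all genes tested, 3.28% higher and 0.379% lower. The lists were chosen with earlier results of these data known, and several hold class markers. A list share above that of all genes, in calls or in levels, is therefore no evidence of enrichment. With so few lower genes among all those tested, a list without a lower member says little.

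Of the 24 contractile protein genes, all tested, 9 had both precursor levels above both fibroblast precursor levels and below both vascular smooth muscle levels (Acta2, Actg2, Tagln, Tpm2, Tpm4, Lmod1, Des, Cald1 and Synpo2), or 37.5% against 2.23% of all genes tested. Another 3, Myh11, Mylk and Cnn1, were above both vascular smooth muscle libraries (12.5% against 39.7%). In the tests, 5 of the 24 were higher than in the mean of the other subtypes (Acta2, Actg2, Myh11, Cnn1 and Synpo2) and 1 was lower (Tagln2). Acta2 passed narrowly there, with a log2 fold change of 0.95 (SE 0.24, adjusted p = 0.0488, edgeR). It did not pass with DESeq2 (adjusted p = 0.305) but did with edgeR on cells thinned to 100000 reads (adjusted p = 0.0258). Against the fibroblast precursors only Tagln2 passed. The median log2 fold change of the list was 0.86 against the fibroblast precursors, where that of all genes tested was -0.03, and 0.66 against the mean of the other subtypes, where that of all genes was 0.63. Against the vascular smooth muscle it was -0.81, with 0.74 over all genes, and against the pericytes it was -0.0049, with 0.55. Actg2, the enteric smooth muscle actin, was at 555 and 439.6 CPM against 11 and 11.7 in the fibroblast precursors, 364 and 158 in the pericytes and 761 and 1066 in the vascular smooth muscle. Its coding sequence is close to that of Acta2, and how the counting divided shared reads is not given in the sources used here. Myh11, the smooth muscle myosin heavy chain, was the other way round: it was at 733 and 541 CPM in the precursors, above both vascular smooth muscle libraries (216 and 447), a difference that did not pass the test (log2 1.02, SE 0.97, adjusted p = 0.714). Myl9, the regulatory myosin light chain, was at 1890.3 and 1538 CPM against 273 and 303 and 1560.4 and 4959, with adjusted p = 0.0798 against the fibroblast precursors.

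Cnn1, which encodes calponin, a protein of mature smooth muscle, was at 53.9 and 20.6 CPM, with 0.414 CPM at most in the fibroblast precursors, no read in either pericyte library, and 0 and 20.5 CPM in the vascular smooth muscle. Synpo2, a Z-disc and actin-bundling protein, was at 61.5 and 45.2 CPM against 0.0476 and 0.863 and 78.2 and 195. Des, the intermediate filament gene of muscle, was at 100.2 and 98 CPM against 17.2 and 22.5 and 164 and 253. Tagln2, the transgelin gene of non-muscle cells, went the other way, at 72.5 and 127 CPM against 1316 and 1602, a log2 fold change of -3.87 (SE 0.41, adjusted p = 0.00129). It was lower in the precursors than in all 12 other libraries. No contractile protein gene was called against the vascular smooth muscle or the pericytes, where the class markers Acta2 and Tagln had log2 fold changes of -0.81 (SE 0.34, adjusted p = 0.352) and -1.26 (SE 1.79, adjusted p = 0.834) against vascular smooth muscle.

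The upstream sequences of Acta2 and Myl9 are shown because the 2 genes had the highest correlation between cells of any pair described below and are textbook targets of serum response factor, which binds the CArG box. The 250 bases before each gene start come from RefSeq's table for the build GRCm38.p6, read 5′ to 3′ on the gene's strand, with CArG boxes in capitals. A box was counted as CC, 6 bases of A or T, and GG, or as the same run with 1 of the middle 6 bases being G or C; the pattern reads alike on both strands.
Acta2, chr19:34255374-34255623, minus strand: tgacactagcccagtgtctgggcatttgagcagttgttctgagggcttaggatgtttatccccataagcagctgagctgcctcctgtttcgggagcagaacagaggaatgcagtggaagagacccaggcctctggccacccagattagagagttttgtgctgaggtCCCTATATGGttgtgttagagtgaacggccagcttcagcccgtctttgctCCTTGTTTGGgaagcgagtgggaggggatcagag
Myl9, chr2:156775214-156775463, plus strand: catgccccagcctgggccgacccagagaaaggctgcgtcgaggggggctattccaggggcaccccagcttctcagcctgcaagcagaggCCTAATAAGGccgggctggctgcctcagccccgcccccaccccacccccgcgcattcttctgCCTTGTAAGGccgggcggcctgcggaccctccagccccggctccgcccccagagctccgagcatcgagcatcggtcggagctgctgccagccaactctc
The Acta2 window holds 2 boxes with 1 G or C, starting 84 and 34 bases before the gene start. The Myl9 window holds 1 box of A and T alone, starting 161 bases before the start, and 1 with 1 G or C, at 99 bases. For the counts over genes, the search also took in a stretch past the gene start, and a box in any promoter entry of a gene counted. Among 27025 genes in the table, 488 (1.81%) had a box of A and T alone and 3050 (11.3%) had a box of either kind. Of the 20 contractile genes with an entry, 4 (20.0%) and 6 (30.0%) did. These are matches of letters and not measured binding.

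Of the 19 contractile regulators, Myocd, Foxf1 and Fhl2 were higher than in the mean of the other subtypes and Itga8 was lower. Myocd encodes myocardin, the cofactor of serum response factor, and was at 261 and 439 CPM against 13.4 and 16 in the fibroblast precursors and 55.6 and 283 in the vascular smooth muscle. The male precursors held the highest level of the 14 fitted libraries and the female precursors lay below the male vascular smooth muscle. Foxf1, a forkhead factor of visceral mesenchyme, was at 407 and 526 CPM against 42.6 and 40.1, and the pericytes held as much (415 and 475). Fhl2, a LIM-domain cofactor, was at 351 and 169 CPM against 3.8 and 6.81. Itga8, the integrin alpha-8 gene, was at 0.0557 and 3.26 CPM, against 28.1 to 294 CPM in all 12 other libraries. None of the 19 passed against the fibroblast precursors, the vascular smooth muscle or the pericytes.

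In the Hedgehog pathway, the class marker Hhip and the coreceptor gene Boc were called, and Ptch1 and Gli1 were not. Of 13 genes, Hhip and Boc were higher than in the mean of the other subtypes and than in the pericytes. Hhip was also higher than in the vascular smooth muscle, at 7884-fold the level of 3 reads over both libraries. Such a fold covers the counting of reads only. It leaves out which 7 and 9 cells were sampled, so it is no lower bound for the class. Boc, a Hedgehog coreceptor, was at 240.5 and 272 CPM against 17.8 and 9.87 in the pericytes, a log2 fold change of 4.20 (SE 0.75, adjusted p = 0.0319). Ptch1, the receptor that is itself induced by the signal, was at 245 and 227 CPM against 147 and 120.0 in the fibroblast precursors (adjusted p = 1). Gli1, the transcription factor most used as a readout of the pathway, was at 21.7 and 18.5 CPM against 22.7 and 19.1. The levels of Hhip did not overlap between the 2 precursor classes, but the difference did not pass (log2 fold change 2.52 (SE 1.21, adjusted p = 0.98)), and the levels of Gli1 overlapped.

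The Wnt genes higher in the precursors were mostly secreted inhibitors and genes of the response. Of 17 ligands, R-spondins and antagonists, 6 were higher than in the mean of the other subtypes (Wnt5a, Wnt9a, Wif1, Sfrp2, Dkk3 and Notum) and none was lower. Over all genes tested, 3.28% were called higher and 0.379% lower in that comparison. Wif1, an inhibitor that binds Wnt ligands, was at 399.6 and 448 CPM, with its next highest level among the 14 libraries in the early adventitial fibroblasts (148 and 264). It was at 0.0112 and 1.21 CPM in the fibroblast precursors and had no read in the vascular smooth muscle. Notum, an enzyme that removes the lipid from Wnt ligands, was at 137 and 127 CPM against 2.06 and 6.72 in the fibroblast precursors and 57.5 and 69.9 in the early adventitial fibroblasts. Dkk3, a secreted relative of the Dickkopf inhibitors, was at 833 and 751 CPM against 202 and 172. Wnt9a was at 27.7 and 18.6 CPM and reached at most 5.21 CPM in the other 12 libraries. Wnt2, the ligand of lung fibroblasts, went against this, at 26.3 and 18.4 CPM against 397 and 513 in the fibroblast precursors (adjusted p = 0.291), but it was called higher than in the pericytes (0 and 0.235 CPM) and the vascular smooth muscle, which held no read.

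Of 18 Wnt receptors and response genes, Lgr5, Lgr6, Tcf7 and Nkd1 were higher than in the mean of the other subtypes and none was lower. Lgr6, a receptor for R-spondins, was at 296 and 259 CPM in the precursors and at no more than 3.25 CPM in the other 12 libraries, with 7.55 CPM of all reads in the E18.5 myofibroblasts and 188 and 53.2 in the proliferating myofibroblasts. Its relative Lgr5 was at 46 and 6.35 CPM in the female and male mouse, and the early adventitial fibroblasts held more (124 and 168). Nkd1, a feedback inhibitor of the canonical pathway, was at 423 and 336 CPM against 55.3 and 54.4, and Tcf7, a transcription factor of that pathway, at 138 and 187 against 35.4 and 24.7. Tcf7 was also called against the vascular smooth muscle, which held no read (adjusted p = 0.0419).

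Of 20 genes of the TGF-beta pathway, Tgfbi, the coreceptors Tgfbr3 and Eng, and the latent binding protein Ltbp3 were higher than in the mean of the other subtypes and none was lower. Tgfbr3, which encodes betaglycan, was at 329 and 239.5 CPM against 60.1 and 52.1 in the fibroblast precursors and 1.63 and 0.915 in the vascular smooth muscle, a log2 fold change of 7.82 (SE 1.09, adjusted p = 0.00879) against the latter. Eng, which encodes endoglin, was at 253 and 290.1 CPM against 26.6 and 37.5, and higher still in the pericytes (446 and 578). Eng is also expressed by endothelial cells, whose summed marker level is given above. Ltbp1 and Ltbp3 were both called against the pericytes, at 226 and 139 against 1.92 and 2.94 CPM and at 364 and 284 against 3.68 and 1.06 CPM.

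Among the BMP pathway genes called higher than in the mean of the other subtypes were Chrd and Nog, which encode secreted BMP antagonists. Chrd, which encodes chordin, was at 46.2 and 65.3 CPM, with 15.8 and 31.9 in the early adventitial fibroblasts and 1.65 and 1.59 in the fibroblast precursors. Nog, which encodes noggin, was at 3.49 and 10.1 CPM and had no read in 10 of the 12 other libraries, with 0.495 and 0.013 CPM in the remaining 2. No ligand or receptor of the pathway passed in any of the 4 comparisons.

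The receptors for platelet-derived growth factor separated the precursors from the vessel-wall cells. Pdgfra was at 813 and 731 CPM, against 0 and 0.131 in the vascular smooth muscle, 10.7 and 0.47 in the pericytes and 108 and 103 in the fibroblast precursors. Pdgfrb was at 67.1 and 48.7 CPM, against 529 and 635 in the vascular smooth muscle and 818 and 1595 in the pericytes. Pdgfra was called higher and Pdgfrb lower against both of these classes, with log2 fold changes for Pdgfrb of -3.30 (SE 0.58, adjusted p = 0.038) and -4.33 (SE 0.61, adjusted p = 0.00751). Of 20 genes tested in the PDGF and FGF list, Pdgfra, Pdgfc, Fgf18 and Fgfr2 were higher than in the mean of the other subtypes and none was lower. Fgf18, a ligand of the FGF family that acts in alveolar growth, was at 202 and 134 CPM and in the other 12 libraries reached at most 8.04 and 10.1, in the early adventitial fibroblasts. On the scale of all reads the proliferating myofibroblasts held 33.4 and 75.7 CPM of Fgf18.

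Notch3, a Notch receptor of mural cells, was at 5.26 and 5.36 CPM against 991 and 735 in the vascular smooth muscle, and its target Heyl was at 3.83 and 8.71 against 1359 and 1572. These differences did not pass (adjusted p = 0.0802 and 0.195), and none of the 11 genes of the Notch list was called in any comparison. In the growth factor list, Igf1 was at 1971 and 1603 CPM against 122 and 77.3 in the fibroblast precursors and was called higher than in the mean of the other subtypes, as was the binding protein gene Igfbp3 (10.1 and 74.4). The imprinted gene Mest was lower against each comparator, at 29.7 and 48.4 CPM against 357 and 417 in the fibroblast precursors (log2 fold change -3.30 (SE 0.54, adjusted p = 0.0291)) and 1776 and 2354 in the pericytes. Igf2r and Igfbp7 were lower than in the vascular smooth muscle, the pericytes and the mean of the other subtypes. H19, an imprinted non-coding RNA, was at 1135 and 1074 CPM against 70.2 and 118 and did not pass.

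The elastic fibre genes of the precursors did not move as a group. Of 16 genes, Eln and Mfap2 were higher and Fbln5 and Mfap4 lower than in the mean of the other subtypes. Eln, which encodes the elastin precursor, was at 5971 and 4728 CPM, against 2310.1 and 2249.7 in the fibroblast precursors, 3939.7 and 8717 in the vascular smooth muscle and 384 and 261 in the pericytes. The precursors exceeded the pericytes by a log2 fold change of 4.05 (SE 0.38, adjusted p = 0.000503), while the vascular smooth muscle and the early adventitial fibroblasts (4806 and 7489.9) overlapped with them. Mfap2, a microfibril protein gene, was at 3639 and 3930.2 CPM, above all 12 other libraries. Fbln5, whose product guides elastin onto microfibrils, was at 7.69 and 6.01 CPM against 243 and 248 (log2 fold change -5.18 (SE 0.90, adjusted p = 0.0437)), and Mfap4 at 2386 and 1673 against 21202 and 17522 (log2 fold change -3.26 (SE 0.37, adjusted p = 0.00258)). Lox, which cross-links elastin and collagen, was at 533 and 415 CPM and was called against the vascular smooth muscle only (4.71 and 0, adjusted p = 0.0413).

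Of 16 collagen genes, none was called against the fibroblast precursors, the pericytes or the mean of the other subtypes, and Col6a1 was higher than in vascular smooth muscle (log2 fold change 2.23 (SE 0.37, adjusted p = 0.028)). Of 18 basement membrane genes, the laminin gene Lamc3 was higher and Col18a1 and Npnt were lower than in the mean of the other subtypes. Npnt, which encodes the integrin alpha-8 ligand nephronectin, was at 0.959 and 6.67 CPM against 422 and 345 in the fibroblast precursors (log2 fold change -6.81 (SE 1.07, adjusted p = 0.0242)). The gene for its receptor, Itga8, was low in the same 2 libraries.

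Of 24 mesenchymal transcription factor genes, Tbx5, Foxf1, Meox1 and Twist1 were higher than in the mean of the other subtypes. Tbx5, a T-box factor of lung mesenchyme, was at 531 and 422 CPM against 187 and 167, and Meox1 at 20.5 and 36.7 against 0.708 and 0.151. None of the 24 passed against the fibroblast precursors. Ebf1, a factor of mural cells, was called lower than in the vascular smooth muscle and the pericytes, at 1.03 and 0.178 CPM against 434 and 684 and 248 and 426. Of 22 tested guidance and adhesion genes, Sema3c, Robo2, Epha4 and Cdh4 were higher and Cdh11, Itga1 and Ncam1 lower than in the mean of the other subtypes. Sema3c, a secreted semaphorin, was at 331 and 172 CPM and at most 10.2 CPM in the other 12 libraries, with 85.4 CPM of all reads in the myofibroblasts. Cdh4, the R-cadherin gene, was at 244 and 281 CPM and at most 0.98 CPM in the other 12 libraries, with 96.5 in the myofibroblasts, while Cdh11, a cadherin of fibroblasts, was at 143 and 108 against 837 and 763. Itga1, a collagen-binding integrin gene, was at 72 and 54.6 CPM and was also called lower than in the vascular smooth muscle (792 and 795) and the pericytes (1936 and 1412). No gene of the cell division list (20 genes) or the immediate early list (10 tested) was called in any comparison.

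**Figure D3:**
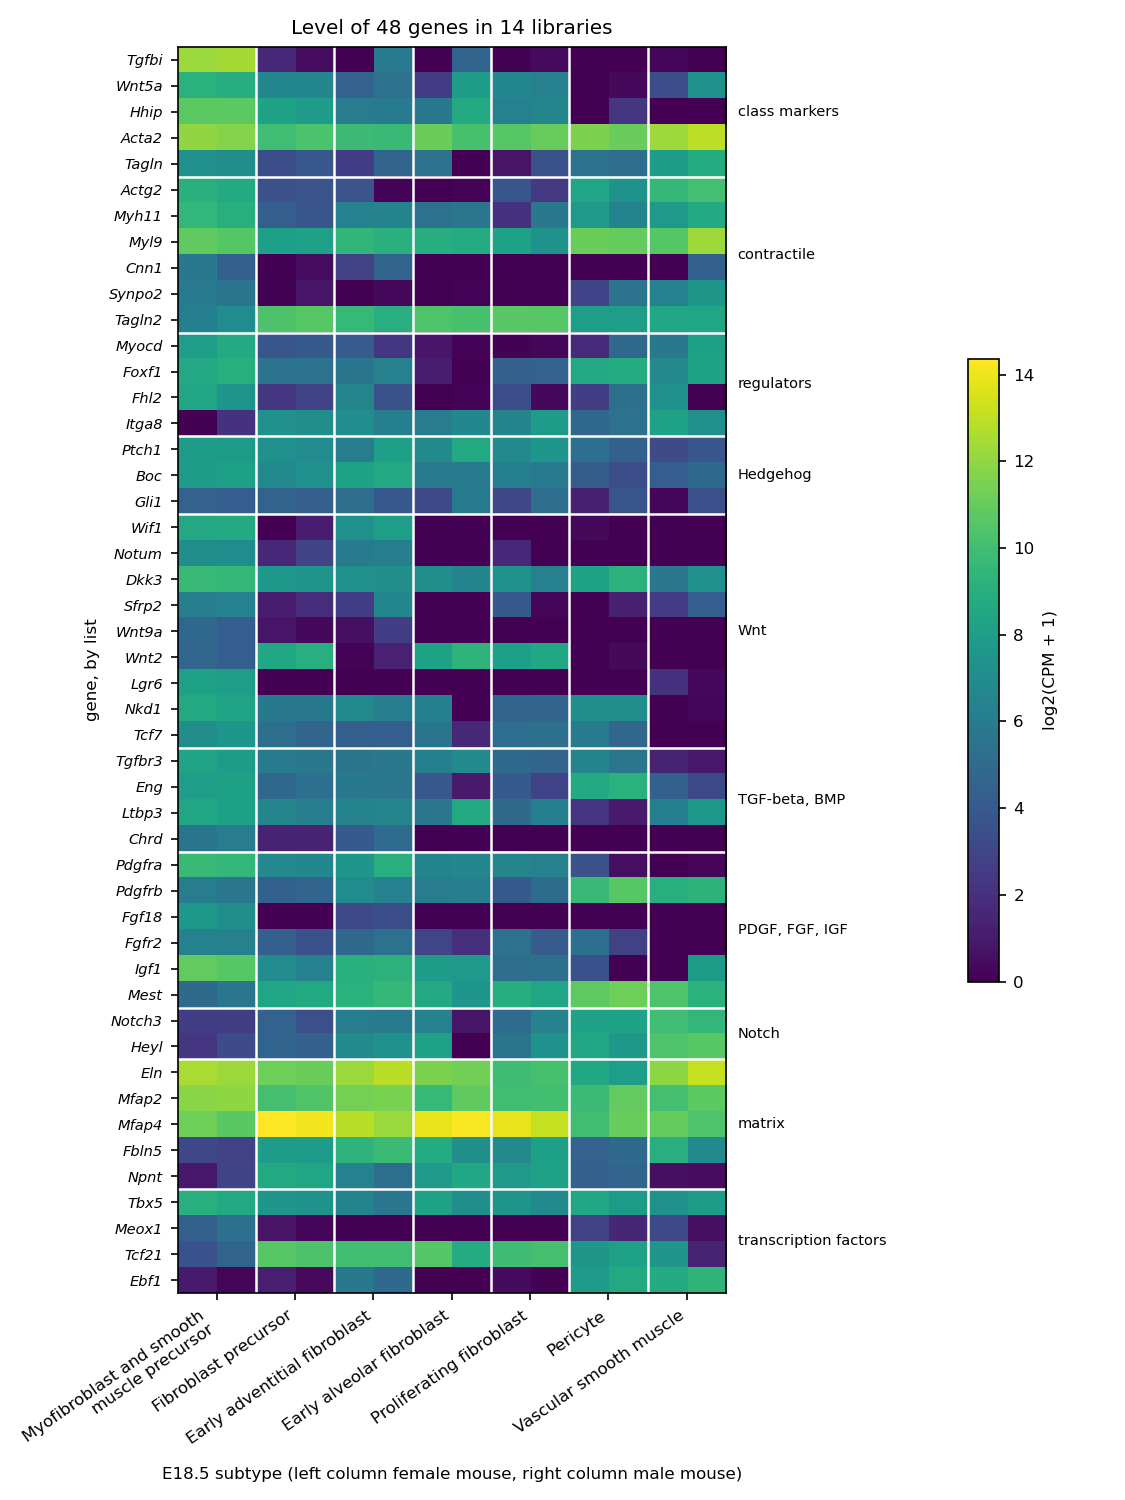
Level of 48 genes of the lists, as log2(CPM + 1), in the 14 E18.5 libraries, with 2 columns per subtype (female left, male right) and white lines between subtypes and lists. The first 2 columns, the precursors, stand out at Tgfbi, Lgr6 and Fgf18, share Acta2, Actg2 and Myh11 with vascular smooth muscle, and are dark at Itga8, Npnt and Fbln5.

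Against the vascular smooth muscle, 31 genes were higher in the precursors (0.218% of those tested) and 24 lower (0.168%). The largest differences upward under the naming rule were in Hhip, Fmo2, Egfem1, Penk and Tnfrsf19, and all 5 had no read in either vascular smooth muscle library. Fmo2, a flavin-containing monooxygenase, was at 1359 and 1293 CPM, 6101-fold the level of 3 reads, but the fibroblast precursors held as much (1472 and 1283). Penk, which encodes the opioid precursor proenkephalin, was at 868 and 464 CPM, 3065-fold the level of 3 reads, and higher still in the early adventitial fibroblasts (1547 and 1955). The count of 55 fell to 16 without the female and 23 without the male precursor library, and it was 226 and 223 without the female and male early alveolar fibroblasts and 34 without either library of proliferating fibroblasts. The median log2 fold change of all genes tested was 0.74 in this comparison. Downward the 5 genes were Brinp1, Ebf1, Fabp5, Cox4i2 and Spon1. Cox4i2, a respiratory chain subunit of vessel-wall cells, was at 13.1 and 9.44 CPM against 834 and 788, and Fabp5, a fatty acid carrier, at 1.26 and 3.12 against 560.2 and 179.

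Against the pericytes, 28 genes were higher in the precursors (0.196%) and 38 lower (0.267%). Upward the rule named Agt, Penk, Opcml, Fndc1 and Efna2, which had no read in either pericyte library. Agt, which encodes angiotensinogen, was at 929 and 1308 CPM, 8030.0-fold the level of 3 reads over both pericyte libraries. Of the other 12 libraries only the fibroblast precursors (28.3 and 18) and the male proliferating fibroblasts (1.65) held reads of it. The count of 66 fell to 23 and 29 without the female and male precursor libraries and to 32 without either pericyte library, and it was 145 and 151 without the female and male early alveolar fibroblasts. The median log2 fold change of all genes tested was 0.55. Downward it named Cpa1, Itga6, Ebf1, Hsd11b1 and Pdzd2. Itga6, the laminin-binding integrin alpha-6 gene, was at 0.0223 and 0.0371 CPM against 262 and 258, and Pdzd2 at 5.44 and 6.63 against 1144 and 1353. Cpa1, a digestive carboxypeptidase gene, had no read in the precursors and was at 186 and 871 CPM in the pericytes. Of the 9 pericyte markers tested, Pdgfrb and Cox4i2 were called lower than in the pericytes and none higher, with 1 log2 fold change above 0 and 8 below it, and the list summed to 840.3 and 764 CPM in the precursors against 6628 and 8542. Against the mean of the other subtypes, 3 members of the list (Rgs5, Kcnj8 and Trpc6) were called higher and none lower. Against the fibroblast precursors 7 of the 9 had a log2 fold change above 0, and none was called. Among its members, Rgs5 and Kcnj8 were at 275 and 314 and at 276 and 249 CPM. The pericytes held 242 and 118 CPM of Rgs5 and 803 and 816 of Kcnj8, and neither gene passed the test against the pericytes (adjusted p = 0.839 and 0.521).

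Against the mean of the other subtypes the rule named Crh, Agt, Fhod3, Lgr6 and Cyp2e1 upward. Crh, which encodes corticotropin-releasing hormone, was at 812 and 602 CPM and at most 1.01 CPM in the other 12 libraries, but the E18.5 myofibroblasts held 500.2 CPM of all reads. Fhod3, a formin that organises sarcomeric actin, was at 115 and 51.4 CPM and at most 0.112 in the other 12, with 87.2 in the myofibroblasts. Cyp2e1, a cytochrome P450 gene, was at 199 and 209 and at most 0.131, with 45.9 and 43.0 CPM of all reads in the proliferating myofibroblasts. Downward it named Ptn, Brinp1, Ly86, Itga6 and Inpp4b. Ptn, which encodes the growth factor pleiotrophin, had no read in the female and 0.0148 CPM in the male precursors, against 14.5 and 7.48 CPM in the fibroblast precursors and 703 and 503 in the early adventitial fibroblasts.

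A simpler description, chosen after the values were seen, counts genes whose lower precursor library exceeded the highest of the other 12 libraries more than 4-fold. Of 7764 genes with at least 10 CPM in both precursor libraries, 78 (1.0%) did so, and of 2437 genes with at least 10 CPM in the other 12 libraries, 6 (0.246%) were lower by the same margin. Of the 78, 14 were not more than 4-fold higher than in the 7 male myofibroblasts and 28 not more than 4-fold higher than in the 7 male proliferating myofibroblasts, and 6 and 4 of them were as high there as in the lower precursor library or higher. In these 2 libraries 47 and 21 of the 78 had no read. Single genes of the 78, picked after their values were seen and forming no tested group, are given here. Ednrb, the endothelin B receptor gene, was at 4951 and 3733 CPM against 97.8 and 62.7 in the fibroblast precursors and at most 255 in the other 12 libraries, but the myofibroblasts held more (7434 CPM of all reads, against 5165 and 3978 in the precursors). Enpp2, which encodes the lysophosphatidic acid-producing enzyme autotaxin, was at 1239.8 and 1524 CPM and at most 65.6 in the other 12, with 1199 CPM of all reads in the myofibroblasts and 1265 and 84.4 in the proliferating myofibroblasts. Gdnf, which encodes a neurotrophic factor, was at 15.2 and 28.3 CPM, and Met, the receptor for hepatocyte growth factor, was at 45.8 and 108 CPM. Pdlim3, a PDZ and LIM domain protein gene, was at 711 and 760.3 CPM, and Scx, a transcription factor of tendon, at 35.3 and 28.9 CPM and at most 0.0768 in the other 12 libraries.

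Ddc, which makes dopamine and serotonin from their amino acid precursors, was at 98.6 and 136 CPM against 11.5 and 2.11 in the fibroblast precursors. On the scale of all reads the proliferating myofibroblasts held 186.6 and 43.0 CPM of Ddc, against 102.9 and 145.0 in the precursors. Slc18a1, the vesicular monoamine transporter gene, was at 12.3 and 11.9 CPM, Slc6a2, the noradrenaline transporter gene, at 23.6 and 34.5, and Cyb561, a cytochrome of secretory vesicles, at 17.9 and 15.1. The 6 genes on the low side were Fn1, Itga8, S100a6, Ccl11, Itm2a and 6030408B16Rik; the chemokine gene Ccl11 was at 0.647 and 9.01 CPM against 101 to 580 CPM in the other 12 libraries.

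In single cells, thinned to 100000 reads each, every marker was found in most precursor cells. Thinning made the reads equal but not the genes detected, whose median was 2793 and 3246.5 in the precursors and 3196 and 3266 in the fibroblast precursors. Tgfbi had a read in 99.0% of 101 female and 99.2% of 120 male precursor cells, against 1.20% of 417 and 0.599% of 334 fibroblast precursor cells. Hhip had a read in 96.0% and 91.7% of the precursor cells, but also in 62.6% and 54.8% of the fibroblast precursor cells. Acta2 was found in 95.05% and 88.33%, Wnt5a in 88.1% and 86.7%, and Tagln in 75.2% and 75.0% of the precursor cells. All 5 markers had a read in 65.3% of the female (Wilson 95% interval 55.7% to 73.9%) and 60.8% of the male cells (51.9% to 69.1%). None of the 101 and 120 cells had fewer than 2 of them, which allows a share of such cells of up to 2.97% and 2.50%. Among the fibroblast precursors, 1 of 417 female and 0 of 334 male cells held all 5. These intervals cover counting error only, and 3 precursor cells under 100000 reads were left out.

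Across single cells, Acta2 and Myl9 had correlations near 0 with the non-contractile genes of the class, and Tagln and Actg2 weakly positive ones. Spearman's rho was computed for 12 genes chosen after their levels were seen, over the 101 female and 120 male cells separately, as a description with no test. Among Acta2, Tagln, Actg2, Myh11 and Myl9 the 10 pairs had a median rho of 0.40 in the female and 0.36 in the male mouse, led by Acta2 with Myl9 at 0.64 and 0.58. Among Tgfbi, Wnt5a, Hhip, Eln, Lgr6, Fgf18 and Cdh4 the 21 pairs had a median of 0.31 and 0.38. Between the 2 sets the 35 pairs had a median of 0.08 and 0.04, with a range of -0.24 to 0.34 and -0.13 to 0.32. The median with the 7 genes of the second set was 0.02 and -0.06 for Acta2 and -0.09 and -0.03 for Myl9, but 0.19 and 0.19 for Tagln and 0.15 and 0.22 for Actg2, and Myh11 differed between the mice (0.20 and -0.02). In the male mouse the highest of these for Actg2 (0.32, with Lgr6) was above its correlation with Myh11 (0.26). Tgfbi followed the number of genes detected in a cell (rho 0.44 and 0.49), while Acta2 did so less (0.12 and 0.19) and Eln hardly (0.03 and 0.09). Wnt5a (0.27 and 0.47), Tagln (0.22 and 0.40) and Fgf18 (0.21 and 0.33) followed it too. The remaining genes of the 12 lay between -0.11 and 0.24. The cells of a mouse share a library preparation, and its part in these values was not tested.

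**Figure D4:**
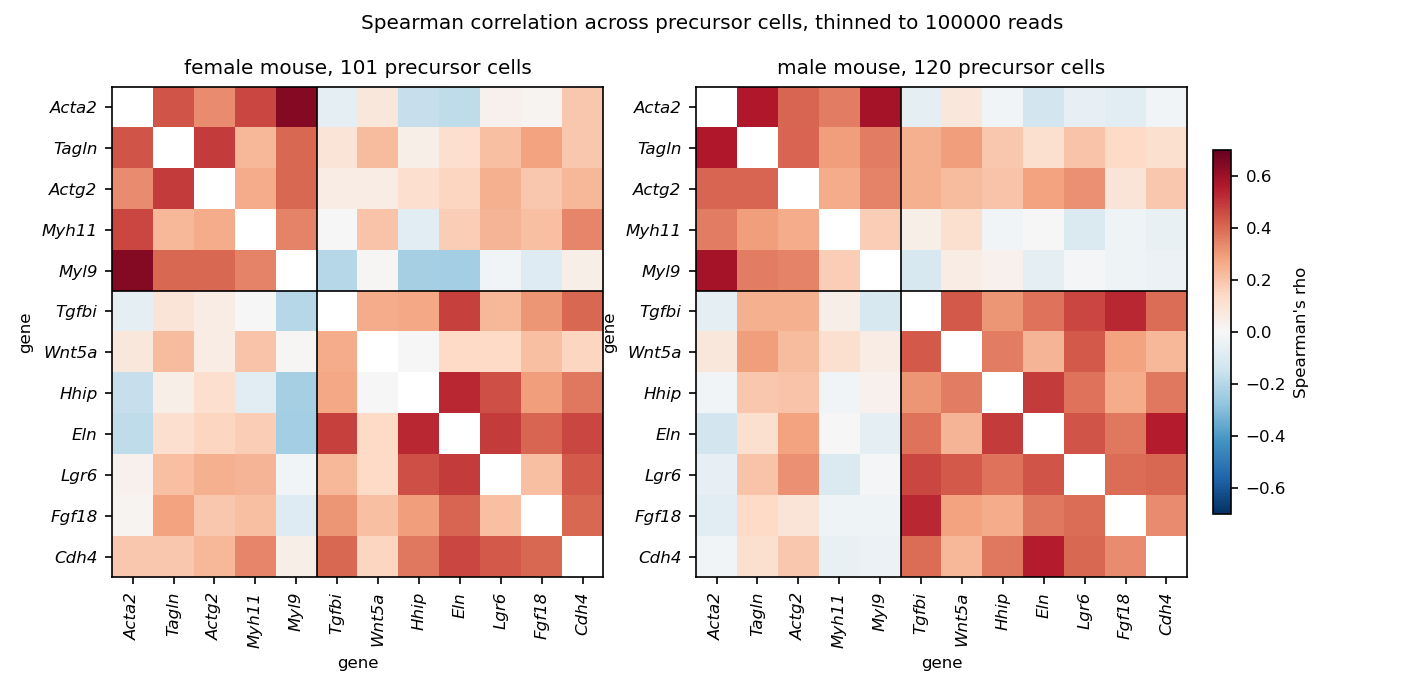
Spearman's rho between 12 genes across single precursor cells thinned to 100000 reads, in the female mouse (101 cells, left) and the male mouse (120 cells, right), with black lines between the 5 contractile genes and the 7 others. Values in the upper left and lower right blocks run from 0 to 0.64, and those in the blocks between them from -0.24 to 0.34.

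The E18.5 myofibroblasts and proliferating myofibroblasts are the classes nearest in name to the precursors, and their values are given without a test because they rest on few cells. The 7 male myofibroblasts held 1721187 reads and the proliferating myofibroblasts 959372 (2 female cells) and 7831213 (7 male cells). The median cell held 934 genes in the myofibroblasts and 4650.5 and 6273 in the proliferating myofibroblasts, against 3343 and 3904 in the precursors. On the scale of all reads, Igf1 was at 2524 CPM in the myofibroblasts and 1336 and 662 in the proliferating myofibroblasts, against 2056 and 1709 in the precursors. Ednrb was at 3804 and 2468 CPM in the proliferating myofibroblasts. Acta2 was at 2.32 CPM in the myofibroblasts and 4231 and 2673 in the proliferating myofibroblasts, against 4242 and 3622, and Myocd had no read in the myofibroblasts and was at 395 and 378 against 272 and 468. Agt likewise had no read in the myofibroblasts and was at 259.5 and 318 CPM in the proliferating myofibroblasts, against 969.6 and 1393. Itga8, low in the precursors, was at 0 in the myofibroblasts and 0 and 0.255 in the proliferating myofibroblasts. Low levels of Itga8 and high levels of Ednrb were thus found in these classes as well as in the precursors, while Acta2, Myocd and Agt were low or without reads in only the myofibroblasts of the 3 classes. The myofibroblasts also had the fewest genes per cell of the 3, and the part of this in their absent reads was not tested.

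At P1 only 14 cells carried the same name, 7 in each mouse, and the values of both ages are set side by side without a test. In CPM of all reads, Tgfbi was at 4957 and 5966 in the E18.5 precursors, 4479 and 2237 in the P1 precursors, 5833 and 5721 in P1 myofibroblasts and 9273 and 13670.0 in P1 early airway smooth muscle. Acta2 was at 4242 and 3622, 3167 and 4223, 6894 and 8991 and 12650.0 and 12570.0 in the same order. Both genes were at their highest in the early airway smooth muscle. Actg2 and Cnn1 were higher in the early airway smooth muscle (4686 and 5425 and, for Cnn1, 2167 and 1489) than in the E18.5 precursors (579 and 468, and 56.2 and 22), with the P1 myofibroblasts between them (1542 and 1942, and 74.8 and 293).

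Among other genes of the E18.5 precursors, Eln, Igf1, Crh and Ednrb were lower in each of the 3 P1 classes. They are single genes and do not stand for the rest. Eln was at 6228 and 5038 CPM at E18.5, 181 and 218 in the P1 precursors, 569 and 433 in the myofibroblasts and 1192 and 1018 in the early airway smooth muscle. Igf1 was at 2056 and 1709, 366 and 408, 475 and 586 and 1045 and 1331, and Crh at 847 and 642, 31.8 and 42.9, 60.9 and 0 and 0 and 23. Ednrb was at 5165 and 3978 at E18.5 and 1549 and 1798, 649.5 and 762 and 683 and 1307 in the P1 classes. Libraries of 7 cells rest on few cells, and age, mouse and plate cannot be told apart in these values.

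**Figure D5:**
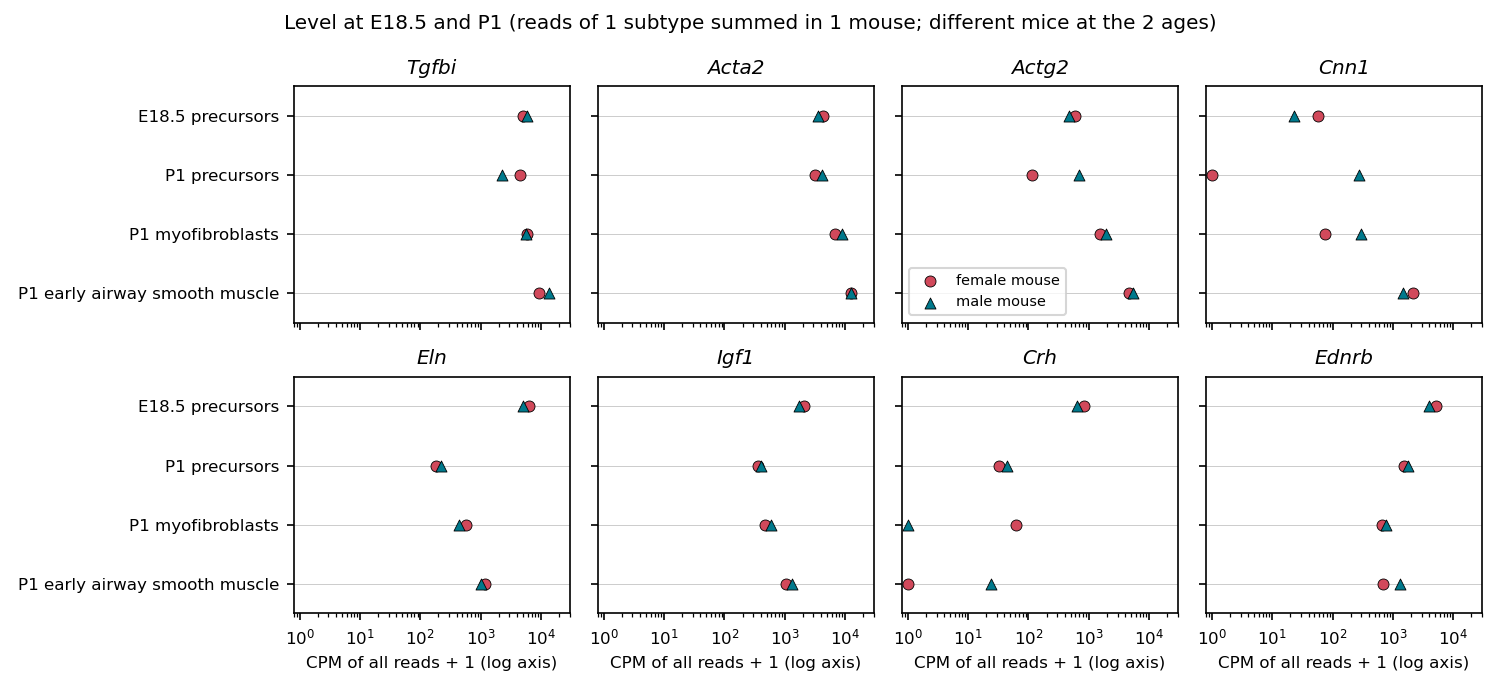
Level of 8 genes, as CPM of all reads + 1 on a log axis, in the E18.5 precursors and in 3 classes at P1, with a circle for the female and a triangle for the male mouse of each age. Acta2, Actg2 and Cnn1 are highest in P1 early airway smooth muscle, and Eln, Igf1, Crh and Ednrb are highest in the E18.5 precursors.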

How the data were processed

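Single mesenchymal cells of mouse distal lung were measured by plate-based RNA sequencing, per the labels' protocols. The deposited table holds whole-number read counts per gene (18072 genes) and cell, which the authors did not normalize. Per the submitters' processing notes, STAR 2.5.2b and HTSeq 0.10 were used with the build GRCh38, a human build although the organism is mouse; the annotation and the filters on genes and cells are not given in the sources used here, so reads of near-identical or overlapping genes are uncertain. No molecular identifiers are named, and a count is a count of reads. Subtypes, mice and plates came from the labels, cells were not clustered again, and no doublet caller was run.

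Counts were summed by mouse and subtype. The 7 subtypes with at least 5 cells in each of the 2 mice gave 14 libraries, and the E18.5 myofibroblasts, proliferating myofibroblasts and proliferating pericytes were left out of the tests. They were tested in edgeR 4.0.16 (R 4.3.3) by its quasi-likelihood test (two-sided, after TMM scaling and filterByExpr) with terms for subtype and mouse. The mouse was a block because the subtypes of a mouse come from the same animal. The scripts were tested on simulated data with 50 genes changed at each fold. At 16-fold the test recovered 7 of 50 against the fibroblast precursors, 8 against the vascular smooth muscle and 7 against the pericytes. Against the mean of the other subtypes it recovered 18. At 8-fold these numbers were 0, 1, 0 and 8, and at 2-fold 0 in each. A gene or list without a call is therefore not shown to be unchanged. Named genes are the class markers, list members and, per comparison, the 10 (fibroblast precursors) or 5 (others) largest fitted log2 fold changes each way among called genes with at least 10 CPM in 1 class and the same direction in both mice, without predicted or sex-linked genes. A fold against a class with no reads was set against 3 reads over that class. It covers the counting of reads and not which cells were sampled, so it is no lower bound for the class. An item of the lists is not reported here. The members and lists were chosen with earlier results of these data known. Alternatives were DESeq2 1.42.0, other scaling, filters, cells, depths, samples and no block.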

Additional observations from a re-analysis of the deposited data

How the results depend on the processing

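The named differences kept their direction under every alternative that tested them, but many lost their call. Of 159 differences of named genes past the threshold, 36 kept their call under all alternatives, and of 3704 values under the alternatives 778 missed the threshold and 0 reversed. The causes were not tested, apart from fewer samples or genes where an alternative leaves them out. Libraries of subtypes outside a comparison, and all proliferating fibroblasts, were left out as alternatives chosen after seeing the data.

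Against the fibroblast precursors (30 genes), DESeq2 called 315 (128 higher), the fit of the 2 subtypes alone 843, no filter on low counts 48 and cells thinned to 100000 reads 52. Without cells with a read of Epcam, Pecam1 or Ptprc 12 were called (0 higher, with 764 genes at an unadjusted p under 0.05 in the edgeR fit of all cells). Leaving out 1 library gave 13 to 56. Against the vascular smooth muscle (55 genes), DESeq2 called 1728, no filter 99, the 2 subtypes alone 27, cells without Epcam, Pecam1 or Ptprc 31, and the fit without proliferating fibroblasts 33; leaving out 1 library gave 16 to 226. With RLE scaling the median log2 fold change of all genes in this comparison was 0.56 in place of 0.74. Against the pericytes (66 genes), DESeq2 called 1457, no filter 114, the 2 subtypes alone 187 and thinned cells 100; leaving out 1 library gave 23 to 151. Against the mean of the other subtypes (522 genes), DESeq2 called 952 and the fit without proliferating fibroblasts 255; leaving out 1 library gave 37 to 608.

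Without the mouse as a block, 26 genes were called against the fibroblast precursors, 74 against the vascular smooth muscle, 82 against the pericytes and 796 against the mean of the other subtypes, and 2 of the named calls were lost, Limch1 (adjusted p = 0.054, edgeR) and Spon1 (adjusted p = 0.171), both against the fibroblast precursors.

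Without thinning, shares of male precursor cells were 100% for Tgfbi, 82.11% for Tagln, 91.06% for Tgfbi with Wnt5a, 82.11% for Tgfbi with Tagln, 95.12% for Tgfbi with Hhip, 76.42% for Wnt5a with Tagln, 77.24% for Acta2 with Tagln, 78.05% for Tagln with Hhip and 69.11% for all 5 markers, and 82.18% of female cells had Tagln with Hhip. Detected genes per cell were then 3343 and 3904. The shares of precursors among E18.5 cells moved within their intervals when cells of the CD31 sort were left out. Libraries of 7 to 14 cells limit what the comparisons with vessel-wall cells can show.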

Other observations

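The share of precursors was alike on both plates of a mouse, at 16.56% and 15.69% of the cells of the female plates and 21.83% and 20.68% of those of the male plates. Beyond E18.5 and P1 the same subtype name was carried by 1 cell at P7 in normal air and 2 cells at P7 in hyperoxia, which were not analysed further.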
